A study of Mus musculus with 24 samples.

Results

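The genes of 6 STAT transcription factors, Stat2, Stat3, Stat4, Stat5a, Stat5b and Stat6, were followed across 24 two-colour microarrays of mouse T helper cells. They were chosen by name, as all probes carrying one of these symbols, and make up 6 of the 20028 gene symbols and 10 of the 55681 probes on the array. CD4+ T cells of female C57BL/6 mice were cultured into T helper 1 (Th1) and T helper 2 (Th2) cells, and each array compared 1 such sample, labelled with Cy3, with naive T cells (CD4+ CD62L+ CD25- CD44lo, sorted from lymph nodes and spleens), labelled with Cy5. The cells were exposed to JQ1 (50 or 500 nM), which blocks the acetyl-lysine pockets of BET proteins, to Flavopiridol (1 or 10 µM), which inhibits P-TEFb, the kinase that releases paused RNA polymerase II, or to the solvent DMSO, and the study asked how far Th1 and Th2 gene expression depends on P-TEFb and BET proteins. In each setting 1 array held unstimulated cells and 1 held cells reactivated through the T cell receptor.

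The Th1 cells gave 14 arrays, namely 5 treatments at 6 hr plus DMSO and 500 nM JQ1 at 24 hr, each unstimulated and reactivated. The Th2 cells gave 10 arrays, the same 5 treatments in both states, of which the drug arrays were taken at 6 hr while the labels of the DMSO arrays disagree between 6 and 24 hr. All groups share the C57BL/6 background, the culture in polarising conditions and the naive reference. Each condition has 1 array from 1 biological replicate. No condition was repeated, so the errors below are the spread of a difference over cell types, states, times or treatments, and the tests treat these as if they were replicates. Values are log2 ratios of sample over naive cells after loess normalisation unless stated otherwise, so that 0 is the level of naive cells and 1 unit is a doubling.

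STAT proteins carry cytokine signals to the nucleus. A cytokine receptor activates Janus kinases (JAKs), these phosphorylate a STAT, and the STAT pairs through its SH2 domain, enters the nucleus and binds DNA at spaced palindromes of TTC and GAA. In T helper cells STAT4 serves IL-12 and the Th1 programme, STAT6 serves IL-4 and the Th2 programme, STAT5A and STAT5B serve IL-2 and IL-7, STAT3 serves IL-6, IL-21 and IL-10, and STAT2 takes part in the complex that answers type I interferon. The arrays measure the transcripts of these factors, not their phosphorylation, and in bulk samples fewer cells expressing a gene and less RNA per cell cannot be told apart.

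Stat5a, Stat5b and Stat3 lie next to each other on chromosome 11, Stat2 and Stat6 on chromosome 10, and Stat4 on chromosome 1. RefSeq start-site windows (GRCm38.p6, 250 bases before to 50 after a start) were found for all 6 genes, 9 windows in total. The windows of Stat5a and Stat5b are shown first because these paralogues, with nearly the same protein, moved in opposite directions on reactivation. Capitals mark the 2 runs of at least 12 identical bases that the windows share, the longest of 16 bases, 29 bases in all.
Stat5a start 2, chr11:100860234-100860483, plus strand: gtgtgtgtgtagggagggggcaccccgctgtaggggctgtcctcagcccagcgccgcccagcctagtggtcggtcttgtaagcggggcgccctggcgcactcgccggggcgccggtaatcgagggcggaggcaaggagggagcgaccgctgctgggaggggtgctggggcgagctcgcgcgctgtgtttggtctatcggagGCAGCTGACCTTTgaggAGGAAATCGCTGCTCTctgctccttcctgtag
Stat5b start 2, chr11:100822571-100822820, minus strand: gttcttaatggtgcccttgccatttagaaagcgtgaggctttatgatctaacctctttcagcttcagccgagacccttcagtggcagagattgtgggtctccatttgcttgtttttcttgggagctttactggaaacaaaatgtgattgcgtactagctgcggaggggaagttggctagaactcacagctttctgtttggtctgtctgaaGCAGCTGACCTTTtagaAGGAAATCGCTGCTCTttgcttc
No other pair of windows from different members shares a run of 12 bases. In each of these 2 windows the shared bases lie within the part nearest to the start, and elsewhere the windows have no such run in common.

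Stat2 is shown because it alone among the members holds a STAT-type palindrome in its window. Capitals mark a match to the interferon-type repeat, the letters GAAA repeated with a gap of 2 bases (read on the minus strand, at position -222 from the start), and a match to TTC and GAA with a gap of 4 bases (at -210).
Stat2, chr10:128270248-128270497, plus strand: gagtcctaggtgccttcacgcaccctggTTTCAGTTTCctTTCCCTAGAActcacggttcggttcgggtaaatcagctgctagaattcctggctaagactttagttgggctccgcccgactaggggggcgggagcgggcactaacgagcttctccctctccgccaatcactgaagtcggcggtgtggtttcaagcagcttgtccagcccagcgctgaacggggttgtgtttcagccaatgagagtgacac
A total of 6 motifs were searched on both strands, and matches of different motifs were counted independently where they overlapped. TTCNNNGAA, the spacing most STAT dimers prefer, was in 0 of the 9 windows and in 8.3% of all 32851 windows in the table. The same palindrome with a gap of 4 bases, the wider spacing favoured by STAT6, was in 1 of 9 against 6.95% of all. The GAAA repeat was in 2 of 9, Stat2 and Stat4 start 2 (at -97), against 3.44%. Of the other motifs, TGANTCA (AP-1) was in 0 of 9 against 7.81%, CACGTG (E-box) in 0 of 9 against 7.15%, and TGGAAA (NFAT core) in 1 of 9, Stat5b start 2 at -120, against 21.4%. A match describes letters in a short window and says nothing about binding in these cells.

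All brightest STAT probes were well above background in both channels on all 24 arrays, and none was saturated. The labels give the same kind of naive cells for every array but do not say whether 1 pool of RNA served them all, so the spread of the naive channel holds array noise and any difference between naive samples, and none of the variation between cultures. Its log2 signal for the members varied by an SD of 0.07 to 0.14 over the arrays and by at most 0.51 in range. Across arrays, 35.5 to 41.5% of probes were well above background in Cy3 with Flavopiridol and 43.8 to 52% otherwise. The spike-in RNAs, whose ratio is meant to be the same on every array, lay between -0.82 and 0.96 after loess. CD4 T cell markers such as Cd3e and Cd4 were measured on all 24 arrays, and Tbx21 and Gata3 separated unstimulated Th1 cells (5.41 and -0.52) from Th2 cells (-0.02 and 1.95). Reactivated Th2 cells also had Tbx21 at 4.64 and Ifng at 6.20. The B cell marker Cd79b was well above background on 21 arrays, Ms4a1 on 20 and Cd79a on 14, and these 3 were lower in Th1 than in Th2 DMSO cells (Th1 minus Th2 from -2.33 to -0.53). Of the myeloid markers, Itgam and Csf1r were well above background on 24 arrays, Cd14 on 3 and Lyz2 on 0, and of the NK cell markers Ncr1 was on 1 and Klrb1c on 0. The part of other cells in the differences between Th1 and Th2 below was not tested. The 24 arrays lay on 3 slides of 8. Each unstimulated and reactivated pair shared a slide, as did the Th1 JQ1 arrays and their DMSO controls, whereas no Flavopiridol array and no Th2 JQ1 array shared a slide with its control.

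**Figure D1:**
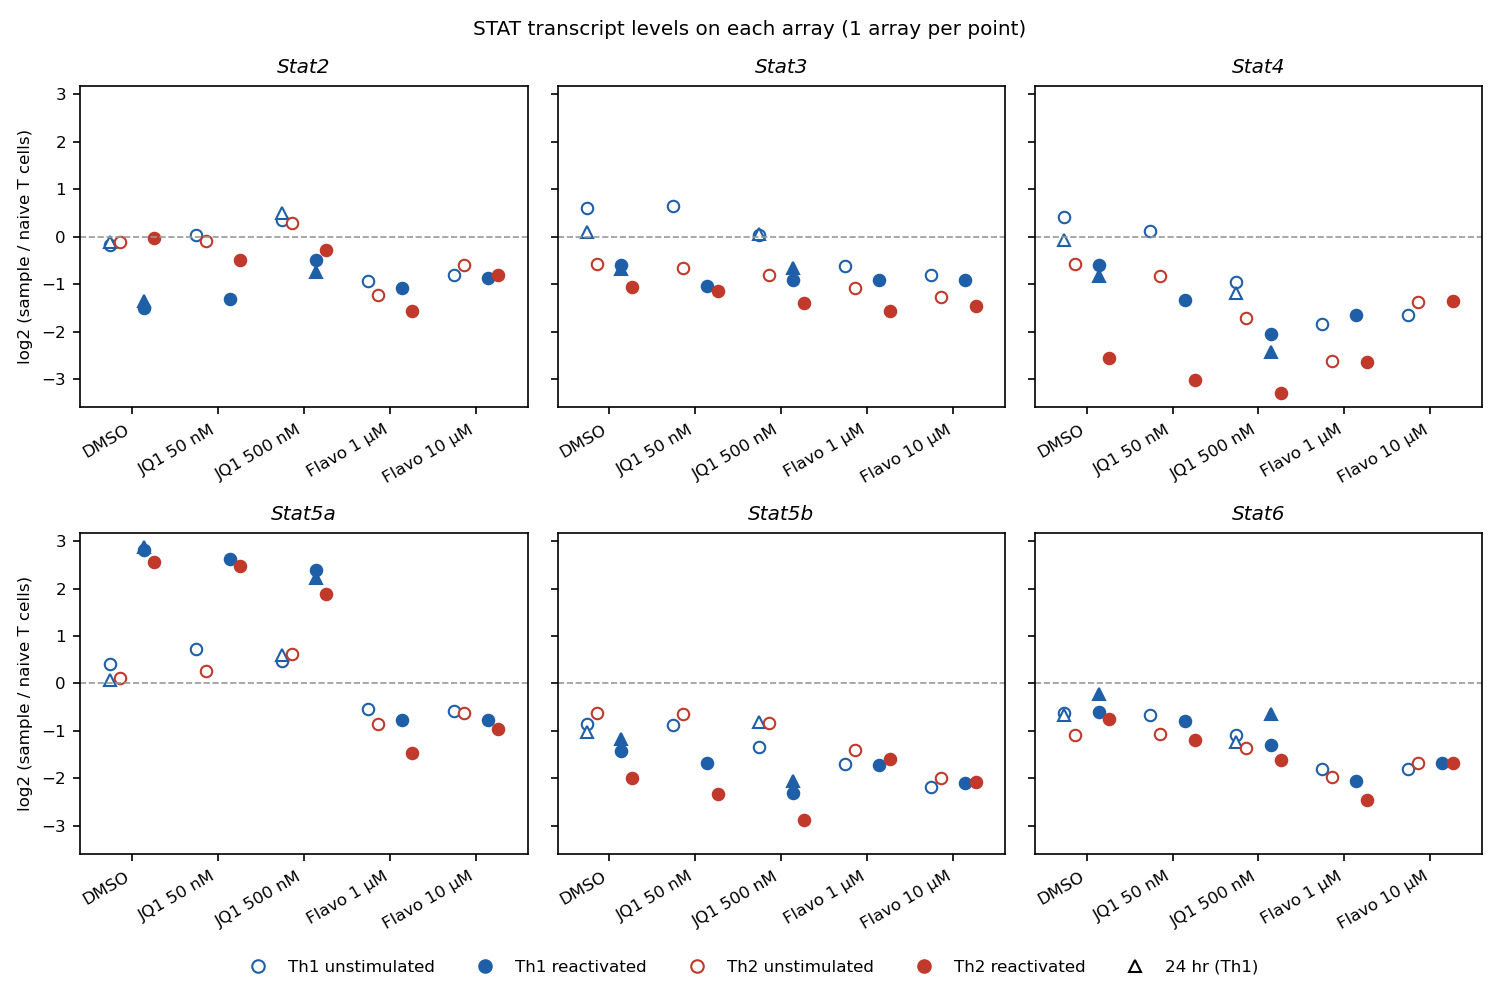
Log2 ratio of sample over naive T cells for each STAT gene (y axis) on each array, by treatment (x axis), with Th1 in blue, Th2 in red, open symbols for unstimulated and filled symbols for reactivated cells, and triangles for 24 hr. Stat5a is above 1.8 on all reactivated DMSO and JQ1 arrays and below 0 on all Flavopiridol arrays, and each point is 1 array, so there are no error bars.

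Stat5a had the widest range of the 6 genes, 4.33 log2 units from -1.46 to 2.87. Without drug, unstimulated cells lay near the naive level, at 0.42 (Th1, 6 hr), 0.08 (Th1, 24 hr) and 0.12 (Th2), and reactivated cells at 2.82, 2.87 and 2.56. The unstimulated and reactivated arrays did not overlap and were close together within each state. Reactivation raised Stat5a by 2.54 ± 0.14 (SE, 3 pairs), or 5.82-fold, with an adjusted p of 0.000179 (limma). Against naive cells the reactivated level was 2.75 ± 0.11 higher, 6.72-fold (adjusted p = 2.08e-06), whereas the unstimulated level did not pass the test (0.21, adjusted p = 0.142).

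Its close relative Stat5b went the other way. Unstimulated DMSO cells stood at -0.85 (Th1, 6 hr), -1.03 (Th1, 24 hr) and -0.63 (Th2), and reactivated cells at -1.42, -1.18 and -2. All 6 arrays lay below naive cells, and each reactivated array lay below its own unstimulated array, by 0.57, 0.15 and 1.37. Stat5b was lower than in naive cells both at rest (-0.84 ± 0.16, adjusted p = 0.00415) and after reactivation (-1.53, adjusted p = 0.000129). The fall on reactivation was -0.70 ± 0.23 (adjusted p = 0.0461, 3 pairs) and rested on few arrays: it did not pass without the Th2 pair (-0.36, adjusted p = 0.129) or without the Th1 6 hr pair (-0.76, adjusted p = 0.102 to 0.104). It was about as small, and not called, with spike-in centring (-0.38, adjusted p = 0.135) and the spike-in shift (-0.38, adjusted p = 0.139), and it did not pass with Cy3 alone, the scanner ratio, the authors' table or no filter on dim genes either (-0.76 to -0.64, adjusted p = 0.0694 to 0.0876). A second, separate Stat5b probe tracked the first over the 24 arrays (r = 0.954).

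Stat4, which carries the IL-12 signal, was close to the naive level in unstimulated cells and below it after reactivation. Its ratio was 0.42, -0.07 and -0.58 on the unstimulated DMSO arrays (Th1 6 hr, Th1 24 hr, Th2) and -0.60, -0.82 and -2.56 on the reactivated ones. All 3 reactivated arrays were below all 3 unstimulated ones, although the Th1 6 hr value after reactivation was within 0.02 of the Th2 value at rest. Stat4 fell by 1.25 ± 0.24 on reactivation (log2 change -1.25, adjusted p = 0.00616), a call that was lost without the block (adjusted p = 0.0994), and ended below naive cells (-1.33, adjusted p = 0.0148). That level was -0.71 without the Th2 array (adjusted p = 0.0321) and did not pass with the 24 hr arrays left out (-1.58, adjusted p = 0.0538).

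Stat3, which carries IL-6, IL-10 and IL-21 signals, fell on reactivation as well. The unstimulated DMSO arrays gave 0.60 (Th1, 6 hr), 0.09 (Th1, 24 hr) and -0.57 (Th2), and the reactivated ones -0.60, -0.69 and -1.07. On the brightest probe each pair moved down, by 1.20, 0.78 and 0.50, and the states did not overlap, although the highest reactivated array lay only just below the lowest unstimulated one. The change was -0.83 ± 0.17 (adjusted p = 0.00706), but it did not pass with spike-in centring (-0.50, adjusted p = 0.0509), with the spike-in shift (-0.51, adjusted p = 0.0606) or without the block (adjusted p = 0.0624). On each array Stat3 was read from 10 spots of 1 probe, whose SD had a median of 0.057, a measure of noise within an array only. A second Stat3 probe followed the first less closely (r = 0.671). In the DMSO pairs it fell in Th1 cells (0.37 to -0.36 at 6 hr, 0.07 to -0.29 at 24 hr) but rose in Th2 cells (-0.64 to -0.39). Its states overlapped.

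Stat2, the interferon-specific member, split the cell types without drug. In Th1 cells it went from -0.18 to -1.51 at 6 hr and from -0.11 to -1.36 at 24 hr, while in Th2 cells it stayed at -0.11 and -0.02. The fitted change was -0.83 ± 0.28 (adjusted p = 0.0495), and it did not pass when any 1 of the 4 Th1 DMSO arrays was left out (-0.58 to -0.62, adjusted p = 0.198 to 0.217), whereas without either Th2 DMSO array it was -1.29 and was called. It did not pass under the spike-in scalings (-0.54 and -0.51) or without the block (adjusted p = 0.118) either. Stat6, which serves IL-4, was below naive cells at rest (-0.62, -0.67 and -1.08; fitted -0.79 ± 0.14, adjusted p = 0.00234). With the mean of its 3 probes the level at rest was -0.29 and did not pass (adjusted p = 0.125). After reactivation it stood at -0.61, -0.23 and -0.74, and its reactivation difference of 0.26 ± 0.14 did not pass (adjusted p = 0.163), although it did with spike-in centring (0.54, adjusted p = 0.0261) and with the spike-in shift (0.58, adjusted p = 0.0221). Its other 2 probes followed the brightest one over the arrays with r = 0.771 and 0.639. Its level after reactivation was -0.53 against naive cells (adjusted p = 0.0103), but with a spike-in shift or the mean of its 3 probes it was 0.05, and without the Th1 6 hr or the Th2 array the call was lost (-0.48, adjusted p = 0.0571, and -0.42, adjusted p = 0.0599).

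Counted over the family, reactivation without drug raised 1 gene and lowered 4 of 6, with a median of -0.76, where 51% of the 12539 genes tested were called (2750 higher, 3639 lower) and their median was -0.05. Against naive cells 2 of 6 were called at rest, both lower, where 58.5% of all genes were called, and 6 of 6 after reactivation, 5 of them lower, where 72% were. More than 50% of the genes tested were called in each of these comparisons, so the counts by themselves do not set the family apart.

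**Figure D2:**
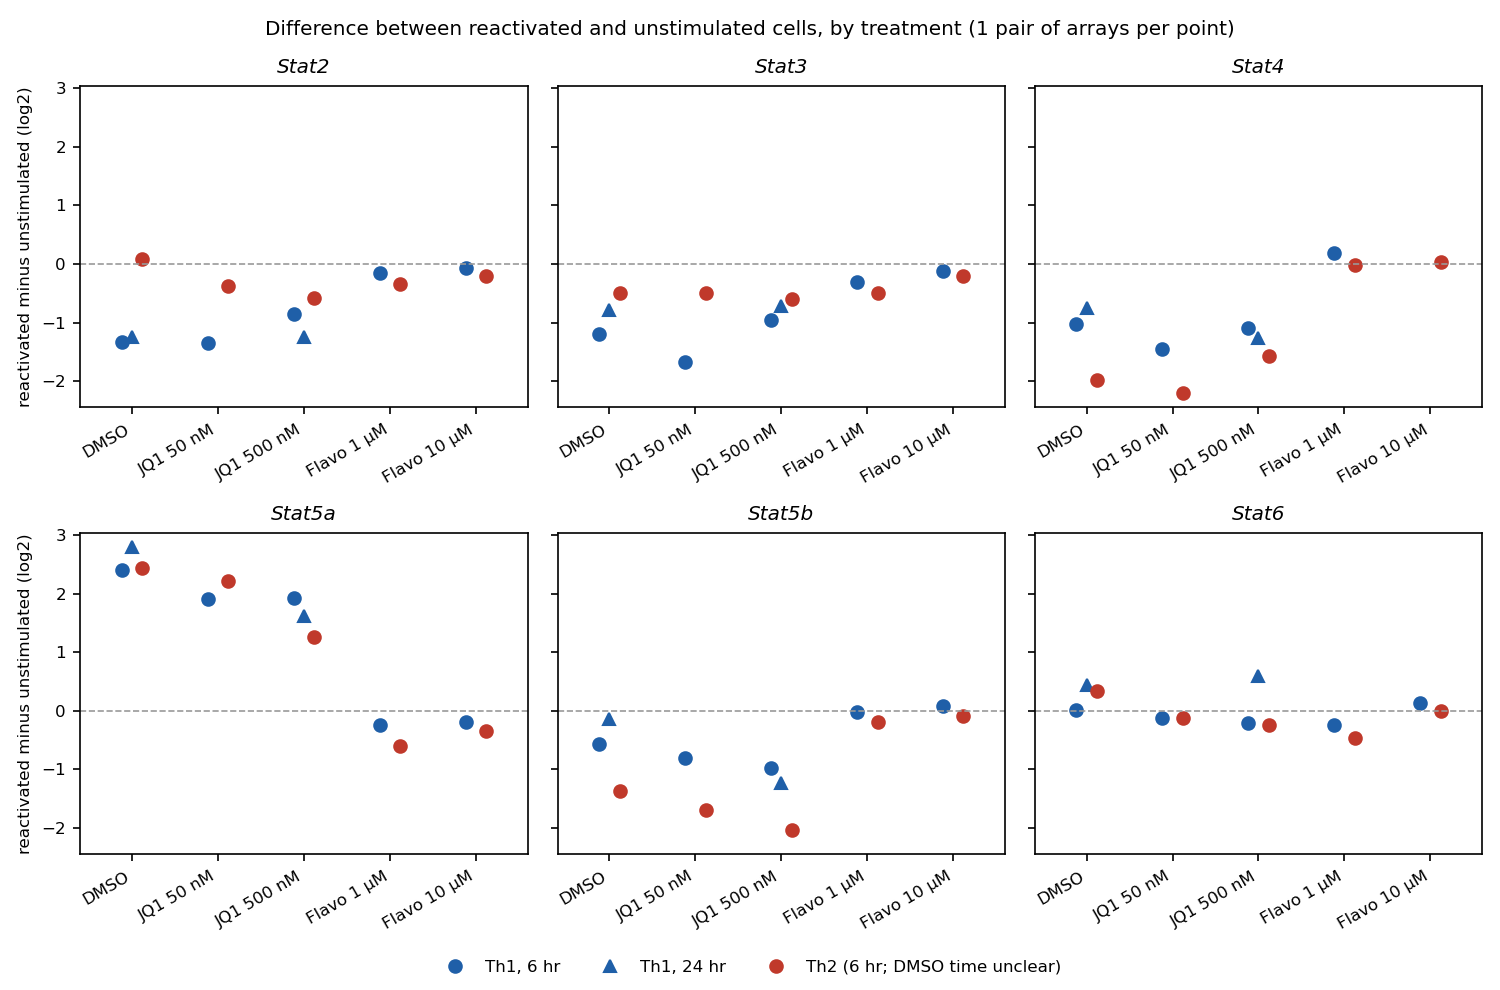
Reactivated minus unstimulated log2 ratio (y axis) for each STAT gene and treatment (x axis), where each point is 1 pair of arrays on the same slide, Th1 in blue, Th2 in red, circles for 6 hr (the time of the Th2 DMSO pair is unclear) and triangles for 24 hr. For Stat5a the DMSO and JQ1 pairs lie between 1.24 and 2.79 and the Flavopiridol pairs between -0.60 and -0.18.

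The next question was how far Th1 and Th2 cells differed. The fit paired 10 Th1 and 10 Th2 arrays of the same treatment and state, with Th2 DMSO paired to Th1 DMSO at 6 hr. Only the 2 DMSO pairs lay on 1 slide each, so in the other 8 pairs cell type and slide cannot be told apart. Stat4 was higher in Th1 cells by 1.02 ± 0.18 (adjusted p = 0.00154). Without the pairing as a block no member was called in this comparison (Stat4 adjusted p = 0.225, Stat3 adjusted p = 0.113). It was higher in 8 of the 9 pairs measured, from 0.76 to 1.97, with the exception of unstimulated cells in 10 µM Flavopiridol (-0.26). Stat3 was higher in Th1 cells in 10 of 10 pairs, from 0.11 in reactivated cells with 50 nM JQ1 to 1.29 in unstimulated cells with the same dose, and the fitted difference was 0.65 ± 0.11 (adjusted p = 0.000679). The size of the Stat3 difference thus varied between pairs by more than its own mean.

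Smaller differences were called for Stat5a (0.28, adjusted p = 0.0186) and for Stat6 (0.25, adjusted p = 0.0167), both higher in Th1 cells. Neither passed under either of the spike-in scalings (adjusted p = 0.0629 to 0.106), and with slide as a random block Stat5a did not pass (adjusted p = 0.0628) while Stat3 (0.69, adjusted p = 0.00261), Stat4 (1.1, adjusted p = 0.00232) and Stat6 (0.26, adjusted p = 0.0333) did. The Stat5a call was also lost with median centring (adjusted p = 0.0547) and an offset of 10 (adjusted p = 0.0516). So it was with the DMSO (adjusted p = 0.0534) or Flavopiridol arrays (adjusted p = 0.0756) left out. With doses averaged Stat6 did not pass (adjusted p = 0.0694). For Stat6, the IL-4 factor, the difference of Th1 and Th2 cells ranged from -0.12 to 0.46 over the 10 pairs. Stat2 (-0.19, adjusted p = 0.367) and Stat5b (0.02, adjusted p = 0.897) did not pass. In this comparison 4 of 6 members were called, where 35.6% of the 13144 genes tested were.

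In the fitted values JQ1 at 500 nM lowered Stat4 more than any other member, although in reactivated Th2 cells Stat6 and Stat5b fell by more. At 500 nM and 6 hr, Stat4 stood at -0.95 and -2.04 in unstimulated and reactivated Th1 cells, against 0.42 and -0.60 with DMSO. In Th2 cells it stood at -1.71 and -3.29, against -0.58 and -2.56. The drug arrays were lower in 4 of 4 contexts, by 1.37, 1.44, 1.13 and 0.73, and the difference was -1.17 ± 0.13 (adjusted p = 5.79e-05, limma), or 2.25-fold. The block for cell type and state carries this call and those of the other members, none of which passed at 500 nM without it (Stat4 adjusted p = 0.461). The 24 hr Th1 arrays, which the fit did not use and which shared a slide with their own control, gave -1.10 at rest and -1.62 after reactivation. At 50 nM the 4 differences were all below 0, from -0.73 to -0.25, but their mean of -0.44 did not pass (adjusted p = 0.184), although it did in a fit of the 8 arrays without the other dose (adjusted p = 0.0185).

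Stat5b and Stat6 were lower with 500 nM JQ1 as well. Stat6 differed by -0.48 and -0.69 in unstimulated and reactivated Th1 cells and by -0.29 and -0.88 in Th2 cells, with a fitted value of -0.58 (adjusted p = 0.000733), and at 24 hr by -0.56 and -0.41. Stat5b differed by -0.50 and -0.90 in Th1 and -0.21 and -0.87 in Th2 cells (fitted -0.62, adjusted p = 0.00106). At 24 hr the Stat5b difference was 0.20 in unstimulated and -0.88 in reactivated Th1 cells. Stat3 was slightly lower (-0.36, adjusted p = 0.0152), with differences from -0.56 to -0.24 at 6 hr and of -0.03 and 0.03 at 24 hr, and the call was lost without the reactivated Th1 DMSO array (-0.32, adjusted p = 0.0565) or the unstimulated Th1 JQ1 array (-0.27, adjusted p = 0.0517).

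Stat2 was the one member fitted higher with 500 nM JQ1, and the weakest call. It differed by 0.54 and 1.02 in unstimulated and reactivated Th1 cells, by 0.41 and -0.26 in Th2 cells, and by 0.62 and 0.61 at 24 hr. The fitted difference was 0.43 ± 0.16 (adjusted p = 0.046), but it turned to -0.18 and -0.14 under the spike-in scalings and did not pass when any 1 of 10 of the 12 arrays of the fit was left out (0.27 to 0.44, adjusted p = 0.0604 to 0.168). Stat5a did not pass (-0.13 ± 0.17, adjusted p = 0.539), but with spike-in centring it was -0.72 and called (adjusted p = 0.0281). Its differences split by state, at 0.05 and 0.51 in unstimulated cells and at -0.42 and -0.69 in reactivated cells, and the 24 hr arrays split alike, at 0.52 and -0.64.

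The test of that split, the difference of the JQ1 effect between reactivated and unstimulated cells, gave -0.83 for Stat5a (adjusted p = 0.0389) and -0.54 for Stat5b (adjusted p = 0.0435). Both rested on single pairs. Stat5a did not pass without either Th2 500 nM JQ1 array (-0.40, adjusted p = 0.158 to 0.159), without any DMSO array (-0.95 or -0.72, adjusted p = 0.0508 to 0.173), or with the scanner ratio (-0.75, adjusted p = 0.229), and Stat5b did not pass without any 1 of 10 arrays (-0.62 to -0.43). With 500 nM JQ1 the reactivated arrays still lay above the unstimulated ones for Stat5a, by 1.92 and 1.62 in Th1 cells at 6 and 24 hr and by 1.24 in Th2 cells, values below those of the DMSO pairs (2.39, 2.79 and 2.44). The size depended on the scaling: with the spike-in shift the 3 JQ1 pairs were at 0.57, 2.04 and 0.89 and the DMSO pairs at 2.69, 2.94 and 2.94. In all, 5 of 6 members were called with 500 nM JQ1, where 47.6% of the 12919 genes tested were, and 0 of 6 with 50 nM, where 0.341% were called and 1701 genes had an unadjusted p under 0.05. The JQ1 effect by state was called for 2 of 6, against 13.8% of all genes.

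**Figure D3:**
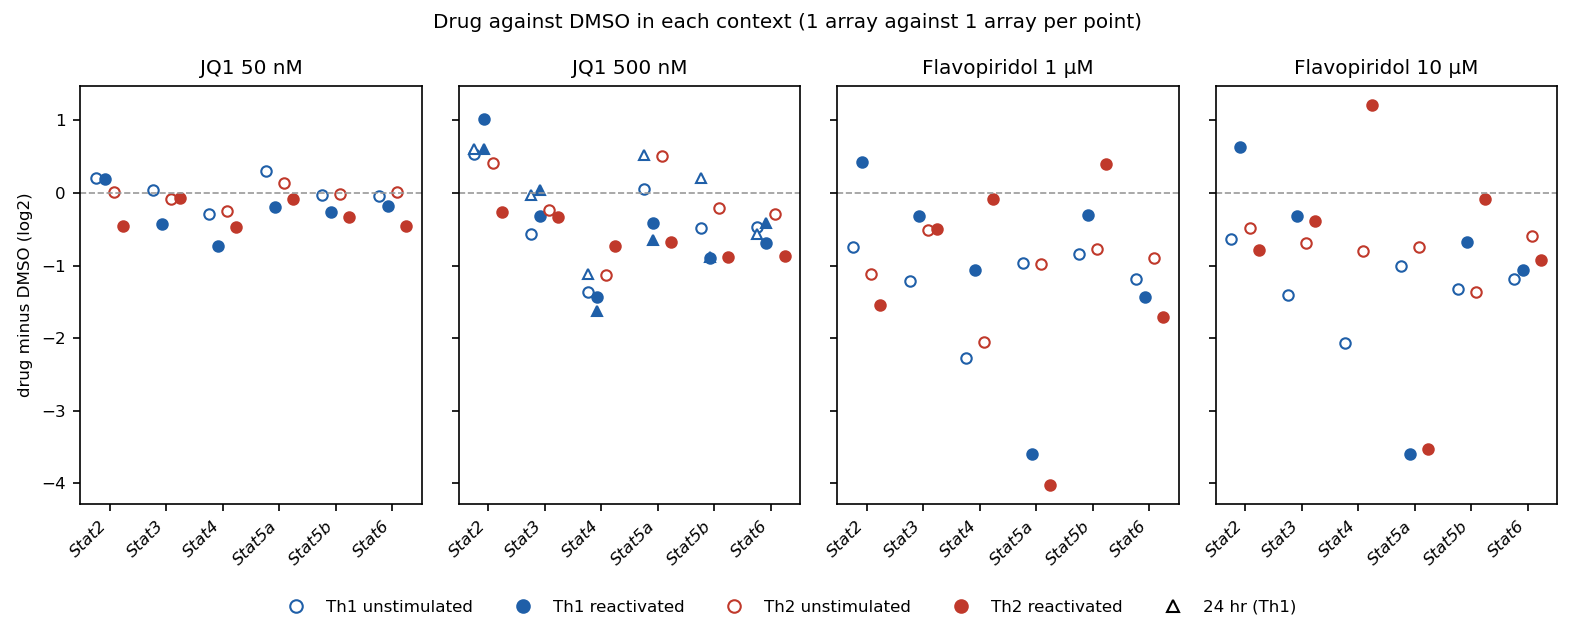
Drug minus DMSO log2 difference (y axis) for each STAT gene (x axis) at the 4 drug doses, 1 array against 1 array per point, Th1 in blue, Th2 in red, open symbols for unstimulated and filled symbols for reactivated cells, and triangles for 24 hr. Stat4 is below 0 at both JQ1 doses in all contexts, and Stat5a reaches -3.58 and -3.52 in reactivated cells with 10 µM Flavopiridol.

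In Flavopiridol, Stat5a was no higher in reactivated than in unstimulated cells. At 10 µM the unstimulated and reactivated arrays stood at -0.58 and -0.77 in Th1 cells and at -0.62 and -0.96 in Th2 cells. At 1 µM they stood at -0.54 and -0.78 in Th1 and at -0.86 and -1.46 in Th2 cells. All 8 arrays were thus below naive cells, and within each pair the reactivated array was the lower one, by 0.18 to 0.60, except that with the spike-in shift the Th1 pair at 10 µM was at 0.11. Against DMSO, Stat5a with 10 µM differed by -1.01 and -0.74 in unstimulated and by -3.58 and -3.52 in reactivated cells. The difference between the states was -2.68 ± 0.18 (adjusted p = 0.00141). Each of the pairs in that comparison lay on 1 slide, so an offset common to a slide cancels in it. It kept its sign and its call in all 24 alternative settings (-2.91 to -2.44).

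Averaged over contexts, Stat5a differed from DMSO by -2.21 ± 0.55 at 10 µM (adjusted p = 0.0103) and -2.39 at 1 µM (adjusted p = 0.00648). Stat6 was lower by 0.94 ± 0.16 at 10 µM (log2 difference -0.94, adjusted p = 0.00152), with -1.18 and -1.06 in Th1 and -0.59 and -0.93 in Th2 cells, and by more at 1 µM (-1.31, adjusted p = 0.000218), from -1.72 to -0.90. On this brightest probe Stat6 was below DMSO in 8 of 8 contexts. The other 2 probes in unstimulated Th2 cells at 10 µM, at -0.22 and -0.18, lay above DMSO (-0.46 and -0.42). In reactivated Th2 cells at 10 µM the second probe was at -0.02, against -0.05 with DMSO. With the mean of the 3 probes the Stat6 differences were smaller but still called (-0.45, adjusted p = 0.0307, and -0.74, adjusted p = 0.00299). Slide and Flavopiridol cannot be told apart by design. With slide as a random block, Stat6 remained called at 10 µM (adjusted p = 0.0116) and 1 µM (adjusted p = 0.00214), and Stat5a at 1 µM (adjusted p = 0.0397) but not at 10 µM (adjusted p = 0.0569).

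Stat5b with 10 µM Flavopiridol was at -2.18 and -2.10 in Th1 and at -1.99 and -2.08 in Th2 cells, unstimulated and reactivated in turn. These 4 values lay within 0.19 of each other, whereas the DMSO values ranged from -2 to -0.63. The difference was -0.86 (adjusted p = 0.0122), made of -1.33 and -1.36 in unstimulated and -0.68 and -0.07 in reactivated cells, and it was not called with slide as a random block (adjusted p = 0.0597). The call was also lost with the mean of its probes (-0.62, adjusted p = 0.0533), Cy3 alone (-0.53, adjusted p = 0.089) and the scanner ratio (-0.62, adjusted p = 0.0826). The states differed in the Flavopiridol effect by 0.97 (adjusted p = 0.0202), a call that was lost without any of the 4 Flavopiridol arrays (0.80 to 1.13, adjusted p = 0.0531 to 0.165). At 1 µM Stat5b did not pass (-0.38, adjusted p = 0.186), but it did without the reactivated Th2 DMSO array (-0.64, adjusted p = 0.00902) and with median or spike-in scaling (-1.71 to -1.19, adjusted p = 0.000175 to 0.00273). Stat3 was lower at both doses (-0.70, adjusted p = 0.0126, and -0.63, adjusted p = 0.0187), on its brightest probe below DMSO in 8 of 8 contexts by 0.32 to 1.40. At 10 µM its second probe lay above DMSO in reactivated Th1 cells (0.09 against -0.36). The same held in unstimulated (-0.09 against -0.64) and reactivated Th2 cells (-0.15 against -0.39). At 1 µM this probe was above DMSO in reactivated Th1 (-0.15 against -0.36) and unstimulated Th2 cells (-0.11 against -0.64). In the other contexts it lay below DMSO. With slide as a random block neither Stat3 value passed (adjusted p = 0.06 and 0.0787), and with the mean of both probes they were -0.25 and -0.30 (adjusted p = 0.267 and 0.177). The 1 µM value did not pass without the unstimulated Th1 Flavopiridol array either (-0.56, adjusted p = 0.0652).

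For Stat4 the difference from DMSO varied between contexts in size and sign. With 10 µM it differed from DMSO by -2.06 and -0.80 in unstimulated Th1 and Th2 cells but by 1.21 in reactivated Th2 cells, where DMSO cells had the lowest Stat4 of all DMSO arrays. The only Stat4 spot on the reactivated Th1 array at this dose carried an outlier flag and was left out of the fit. The authors' own table has it at -1.87, and the reactivated Th1 DMSO array at -0.57. In the fit only Th2 cells thus had 10 µM values in both states, and the difference between states given below rests on them. The averaged difference was -0.50 ± 0.51 (adjusted p = 0.453), and without the reactivated Th2 DMSO array it was -1.10 (adjusted p = 0.0436), and without the unstimulated Th1 array at 10 µM it was 0.06 (adjusted p = 0.939). The difference between states was 1.82 ± 0.32 (adjusted p = 0.015), with 1 residual degree of freedom in its fit. At 1 µM Stat4 differed by -2.27, -1.06, -2.05 and -0.09 (Th1 unstimulated and reactivated, then Th2), with a mean of -1.37 (adjusted p = 0.0385) that did not pass without any 1 of 8 arrays (-0.94 to -1.51, adjusted p = 0.058 to 0.114) or with slide as a random block (adjusted p = 0.125). Unlike with DMSO, the pairs of unstimulated and reactivated cells in Flavopiridol differed by only 0.19, -0.02 and 0.02. Stat4 was higher at 10 than at 1 µM in the 3 contexts measured at both, by 0.21 to 1.30.

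Stat2 with 10 µM Flavopiridol differed by -0.62, 0.63, -0.49 and -0.78 in the same order, and its mean of -0.31 did not pass (adjusted p = 0.386), nor did that at 1 µM (-0.75, adjusted p = 0.0525). Without the reactivated Th1 DMSO array, where Stat2 was low, both passed (-0.67, adjusted p = 0.0175, and -1.10, adjusted p = 0.0017), as did 1 µM without its own reactivated Th1 array (-0.98, adjusted p = 0.0254). In all, 4 of 6 members were called at 10 µM, where 48.9% of the 12458 genes tested were, and 4 of 6 at 1 µM, where 51.7% were, all lower. Their medians were -0.78 and -1.03 against -0.22 and -0.24 for all genes. Scaling on the spike-ins after loess moved the median of all genes at 10 µM to -1.27 and the Stat5a difference to -3.26, and all 6 members were then below DMSO and called (-3.26 to -1.36). In that setting 9622 of the 12458 genes tested were called. The Flavopiridol effect by state was called for 3 of 6, against 35.2% of all genes.

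Set directly against each other in the same 4 contexts, 10 µM Flavopiridol and 500 nM JQ1 differed for Stat5a, by -2.08 (adjusted p = 0.00754), and for Stat2, by -0.74 (adjusted p = 0.0191), both lower with Flavopiridol. In none of these contexts did the arrays of the drugs share a slide, so drug and slide cannot be told apart here. Stat5a differed by -1.06 and -1.25 in unstimulated and by -3.17 and -2.84 in reactivated cells. The Stat2 call was lost without any 1 of the 4 unstimulated arrays (-0.60 to -0.69, adjusted p = 0.0705 to 0.0861). For Stat3, Stat4, Stat5b and Stat6 the differences were -0.34, 0.53, -0.24 and -0.36 and did not pass, although Stat3, Stat5b and Stat6 did with spike-in centring (-1.18, -1.3 and -1.67), so 2 of 6 members were called, where 49.4% of the 11919 genes tested were. Both drugs were also compared with the same DMSO arrays above, so their differences from DMSO are not independent of each other. No member passed the test that a drug acted differently in Th1 and Th2 cells, where 13.5% of all genes were called for Flavopiridol and 0.619% for JQ1. For Stat4 with Flavopiridol this depended on the spot left out above. Stat4 passed with the authors' table (-1.81, adjusted p = 0.0279) and with flagged spots kept, an alternative added after seeing the data (-1.4, adjusted p = 0.0251). Without the block it was -1.75. With an unadjusted p under 0.05 as the measure, 4277 and 1748 genes would have been counted in these tests. The nearest member was Stat4 with Flavopiridol (-1.45, adjusted p = 0.0523).

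**Figure D4:**
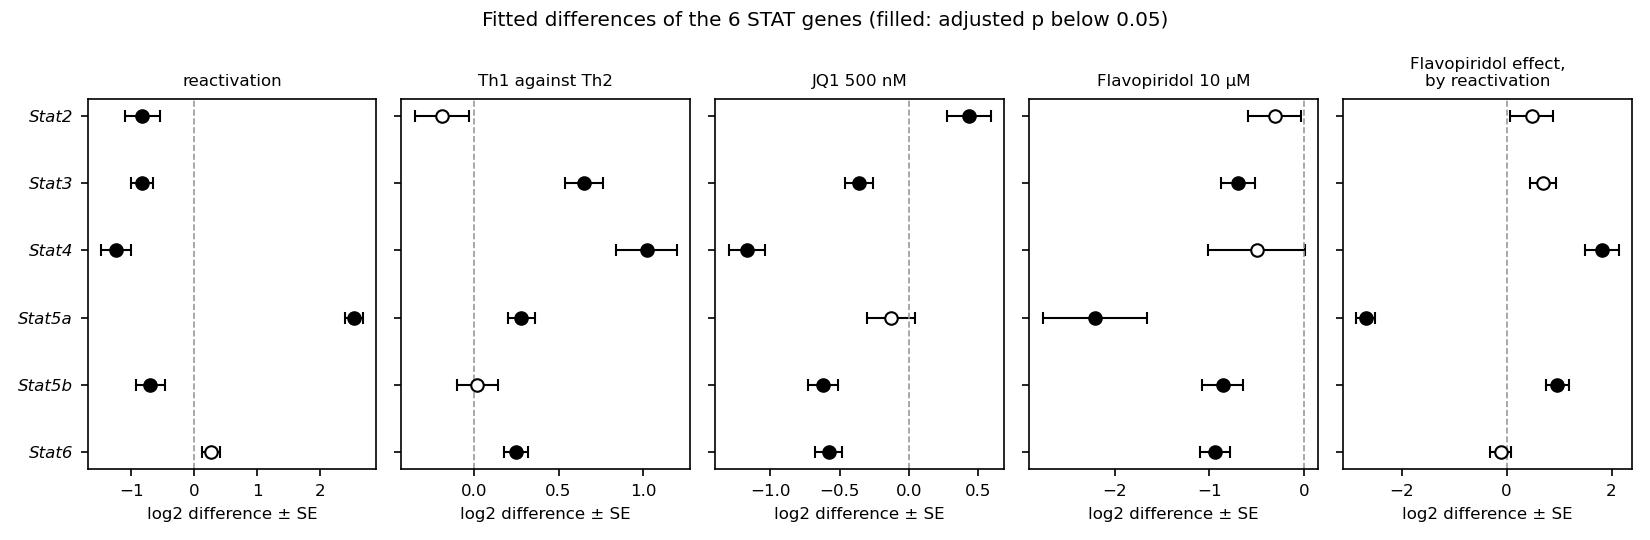
Fitted log2 difference (x axis, point) with its standard error (bar) for the 6 STAT genes in 5 comparisons, where filled points have an adjusted p below 0.05 and each panel has its own scale. Reactivation raises Stat5a by 2.54 and the Flavopiridol effect on it differs by -2.68 between the states, while JQ1 at 500 nM lowers Stat4 by 1.17.

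The 24 arrays were also ordered by level. The SD of the naive channel times the square root of 2, which was 0.10 to 0.20 for the members, served as a yardstick. It covers no variation between cultures, so a step above it is not shown to be a difference between conditions. For Stat5a, 7 of the 23 steps between neighbouring arrays exceeded it, the largest being 1.16, between the highest unstimulated and the lowest reactivated array without Flavopiridol. For Stat4 14 of 22 steps did, for Stat6 7 of 23, for Stat3 3, and for Stat2 and Stat5b 2 each, so most neighbours in those last 3 orders did not differ beyond this spread. Between 24 and 6 hr, 4 Th1 pairs without a test showed differences in Stat5a of -0.34 to 0.12 and in Stat4 of -0.50 to -0.23, while Stat6 in reactivated cells was 0.38 (DMSO) and 0.67 (JQ1) higher at 24 hr; these arrays lay on different slides.

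The genes whose log2 ratios ran most closely with a member over the arrays were found by Pearson r among 8811 or 8812 genes that were well above background on all arrays. For Stat5a they were Knop1, Rsl1d1 and Zdhhc13 (r = 0.978, 0.974 and 0.973), and 32.9% of all genes had an r above 0.5 with it. For Stat4 they were Dynlt1c, Pstpip1 and Sting1 (0.919, 0.917 and 0.905, over 23 arrays), for Stat6 Erbin, Arhgef2 and Wrnip1 (0.939, 0.928 and 0.917), and for Stat5b Stambp, Hltf and Mbd2 (0.927, 0.926 and 0.921). For Stat3 they were Hk1, Tapbpl and Gvin1 (0.898, 0.896 and 0.886) and for Stat2 Armcx6, Pi4kb and Amacr (0.899, 0.897 and 0.887). These arrays share the naive reference and the same few treatments, and the values are descriptions.

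The genes around the STATs were followed by a list of 82, of which 69 to 75 were tested, depending on the comparison. Reactivation without drug raised 18 and lowered 20 of 74, with a median of 0.07, close to the 51% called over all genes. Of the JAK kinases 3 of 4 fell and 1 rose, and of the cytokine receptor chains 9 of 19 fell and 4 rose, led by Ifngr1, the ligand-binding chain for IFN-γ (-3.08, adjusted p = 0.000179). Among the inhibitors, 3 of 16 rose and 3 fell, and the phosphatase gene Ptpn6 fell by 2.29 (log2 change -2.29, adjusted p = 0.000326). Of the targets, 3 of 4 STAT6 targets rose, including the cytokine genes Il4 (3.92, adjusted p = 0.000293) and Il13 (3.81, adjusted p = 0.000119), while 2 of 6 STAT4 targets rose and 1 fell. Il4 was well above background on 1 and Il13 on 2 of the 3 unstimulated arrays, so the sizes of these rises are uncertain. Of the STAT3 targets 2 of 6 rose and 1 fell, of the STAT5 targets 2 of 4 rose, and of the STAT2 targets 1 of 10 rose and 1 fell. None of the 5 cofactors rose, and 2 fell.

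Relative to naive cells the same list had 22 genes higher and 25 lower at rest, and 27 higher and 28 lower after reactivation, of 74, against 58.5% and 72% of all genes called. Il2ra, the high-affinity chain of the IL-2 receptor that signals through STAT5, was 5.08 higher at rest (adjusted p = 1.04e-06), and Ifng, the STAT4 target that defines Th1 cells, was 4.96 (adjusted p = 0.0114) and 7.71 (adjusted p = 0.000963) higher in the 2 states. At rest Ifng stood at 7.15 in Th1 cells (6 hr) and at 0.65 in Th2 cells, so its mean joins unlike cells. The naive Ifng signal on the resting arrays was well above background on 2 of 3. The STAT3-activating cytokine gene Il21 was 6.69 higher after reactivation (adjusted p = 0.000467), a size that rests on a naive signal well above background on 1 of 3 arrays, while Il6ra, a receptor chain that leads to STAT3, was -3.99 (adjusted p = 4.97e-05). The interferon-induced genes listed as STAT2 targets were lower at rest in 8 of 10 and higher in 0, with Oas2 at -4.12 (adjusted p = 6.95e-05) and -3.95 (adjusted p = 3.59e-05) in the 2 states and Oasl1 at -3.60 at rest (adjusted p = 0.000131). Stat2 itself did not pass at rest (-0.13, adjusted p = 0.686).

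Between the cell types 21 genes of the list were higher and 16 lower in Th1 cells, of 75, against 35.6% of all genes called. All 6 STAT4 targets were higher in Th1 cells, among them Ifng (5.98, adjusted p = 2.16e-05) and the IL-18 receptor gene Il18r1 (4.14, adjusted p = 7.64e-09), and all 4 STAT6 targets were lower, among them Il4 (-3.59, adjusted p = 1.62e-05) and Gata3 (-2.51, adjusted p = 2.8e-07). Il4 was well above background on 3 of 10 Th1 arrays and Ifng on 4 of 10 Th2 arrays, so the sizes for these 2 genes are uncertain. These targets are also the genes by which the cell types are known. Of the STAT3 targets, 5 of 6 were higher in Th1 cells, and of the STAT2 targets 5 of 10 were lower.

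With 500 nM JQ1 36 of 75 genes of the list were lower and 8 higher, with a median of -0.43, where 47.6% of all genes tested were called (3865 lower, 2282 higher) and their median was -0.07. The receptor chains (11 of 20 lower, 0 higher), STAT4 targets (3 of 6 lower, 0 higher), STAT6 targets (3 of 4 lower, 0 higher) and STAT2 targets (5 of 10 lower, 0 higher) had no member that rose. The steepest falls were in STAT3 targets, Bcl3 (-2.43, adjusted p = 4.05e-05) and Il21 (-2.07, adjusted p = 0.0011), and 4 of the 6 measured STAT3 targets fell. The kinase gene Pim1, a STAT5 target, was higher (0.64, adjusted p = 0.000297), as was the coactivator gene Ncoa1 (0.50, adjusted p = 0.00494), while 2 of 4 STAT5 targets fell. At 50 nM only Osm (-0.64, adjusted p = 0.0335) and Nmi (-0.47, adjusted p = 0.0287) were called, of 75, against 0.341% of all genes. The number called over all genes at 50 nM was 44. It was 0 without the block or under either spike-in scaling, and 937 in the fit of 8 arrays without the other dose. In the JQ1 effect by state, 17 of 75 were higher and 4 lower, against 13.8% of all genes called, from Il2ra (1.76, adjusted p = 0.00272) and Il7r (1.47, adjusted p = 0.00352) to Il13 (-1.5, adjusted p = 0.0179) and the anti-inflammatory cytokine gene Il10 (-2.22, adjusted p = 0.000222). Il10 was not well above background on any array with 500 nM JQ1, nor Il13 on the unstimulated ones, so these 2 values are fitted from signals near background and give no measured size.

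With 10 µM Flavopiridol 24 of 70 genes of the list were lower and 7 higher, with a median of -0.66, and with 1 µM 32 were lower and 6 higher, with a median of -0.76, where 48.9% and 51.7% of all genes were called, mostly lower (4175 and 4415 of them). The inhibitors of the pathway were lower in 9 of 16 at each dose, with Cish, a feedback inhibitor that STAT5 induces, at -3.30 with 1 µM (adjusted p = 0.000324). Jak2, a kinase that works with the IL-12 receptor, was at -3.18 with 1 µM (adjusted p = 0.00178). Il21 (-3.34, adjusted p = 0.00435) and Tbx21, which encodes the Th1 regulator T-bet (-3.11, adjusted p = 0.0068), were the lowest fitted at 10 µM, each well above background on 2 of the 4 drug arrays. Against this, the receptor genes Il12rb2 (1.52, adjusted p = 0.016) and Il27ra (1.47, adjusted p = 5.61e-05) were higher at 10 µM, and likewise at 1 µM (1.47, adjusted p = 0.0177, and 1.25, adjusted p = 8.19e-05). As with the STAT genes, no Flavopiridol array shared a slide with its control.

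The Flavopiridol effect differed by state for 31 of 70 genes of the list, 15 higher and 16 lower in reactivated cells, against 35.2% of all genes. Ifngr1 (3, adjusted p = 0.00193) and Il12rb2 (2.01, adjusted p = 0.00371) were among the higher ones, and the cytokine genes Il4 (-3.74, adjusted p = 0.00304) and Ifng (-3.63, adjusted p = 0.039) were lower. With 10 µM Flavopiridol these 2 cytokine genes were each well above background on 1 of 2 arrays in either state, and Il4 with DMSO on 1 of 2 unstimulated arrays, so their place among the others is uncertain. Set against 500 nM JQ1, 10 µM Flavopiridol gave 17 genes higher and 22 lower of 69, against 49.4% of all genes called, from Lta (2.75, adjusted p = 0.00161) to Jak2 (-2.81, adjusted p = 0.0124) and the feedback inhibitor Socs1 (-3.24, adjusted p = 0.000801). Il18r1 was fitted at 2.56 (adjusted p = 0.00134), but it was well above background on 2 of the 4 JQ1 arrays, so this size is uncertain. No pair of arrays in this comparison of the drugs shared a slide. For the cell type tests, 6 genes were higher and 11 lower of 70 with Flavopiridol, against 13.5% of all genes, from the interferon-induced Ifit1 (1.89, adjusted p = 0.0419) and Il12rb1 (1.75, adjusted p = 0.0432) to Il21r (-1.75, adjusted p = 0.0245) and Il4ra (-1.96, adjusted p = 0.0206), where positive values mean that the difference from DMSO was higher in Th1 cells. That share depended on the processing. Of all genes 1687 were called, but 408 with an offset of 10 and 8590 with the spike-in shift. With the scanner ratio 0 were called, so none of these named genes was. With JQ1 4 were higher and 2 lower of 75, against 0.619% of all genes, with the interferon-induced Ifit1 (1.70, adjusted p = 0.0343) and Rsad2 (1.58, adjusted p = 0.0471) higher and Il18r1 (-1.18, adjusted p = 0.0388) and Il12rb2 (-1.09, adjusted p = 0.0344) lower. Of all genes 80 were called for JQ1, and 207 with median centring. Without the block, with the scanner ratio or with an offset of 10, 0 genes were called, so these JQ1 calls were lost. In these cell type tests Ifit1 was not well above background in Th2 cells with Flavopiridol, Rsad2 in Th1 cells with DMSO, or Il18r1 in Th2 cells with JQ1, on either array, so these sizes were not measured on both sides.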

How the data were processed

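The deposited files were scanner outputs of 24 two-colour Agilent arrays (Feature Extraction 10.7.1.1, array grid on mouse build mm9), with Cy3 for the sample, Cy5 for naive T cells and no dye swap. Per the file headers they hold median spot and background intensities, quality flags and the software's log10 ratio of Cy5 over Cy3. Mean spot signals had been planned, but the files hold medians, so medians were used. A second deposited table holds log2 ratios of 34710 probes made by the authors, whose normalisation is not given in the sources used here and which correlated with the loess values at r = 0.981 to 0.996 per array. It served as an alternative only.

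Intensities were corrected with normexp (offset 50), and log2 Cy3/Cy5 was normalised within arrays by loess, controls at weight 0. Outlier-flagged spots were removed, spots of a probe averaged, and each gene was read from its brightest probe. Genes well above background in Cy3 on at least 3 arrays of a fit, and missing on at most 1, entered limma 3.58.1 (R 4.3.3). P-values were adjusted by Benjamini-Hochberg over all genes tested, and 0.05 was the threshold. Cell type, state, time or treatment served as blocks. No column belonged to another series. Depth does not apply to arrays, where the number of arrays limits the precision.

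The members, the pathway list of 82 genes, the marker list and the motifs were chosen with earlier results of these data known. A marker of the list is not reported here. All members were named. Of the pathway list, the 2 largest rises and the 2 largest falls among called genes were named in each comparison, and for each member the 3 genes of highest r. The steps were tested on simulated data.

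Alternatives were other centring (median, spike-ins with and without loess), an offset of 10, Cy3 alone, the scanner's ratio, the authors' table, all probes averaged, no filter, slide as a random block, no block, fewer arrays, and each array left out in turn. Keeping flagged spots was added after seeing the data. RefSeq sequences (GRCm38.p6) were matched by symbol.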

Additional observations from a re-analysis of the deposited data

Results flagged for a closer look

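The Flavopiridol effect at 10 µM differed between reactivated and unstimulated cells for 3 members by limma's interaction test: for Stat5a by -2.68, for Stat4 by 1.82 and for Stat5b by 0.97. For Stat4 only Th2 cells had 10 µM values in both states. The JQ1 effect at 500 nM differed between the states for Stat5a by -0.83 and for Stat5b by -0.54.

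In 4 further cases all contexts of one kind with a value moved one way and those of the other kind the opposite way, and these differences were either not tested or are descriptions of the contexts behind a test above. Stat4 with 10 µM Flavopiridol was 1.21 higher than DMSO in reactivated Th2 cells and lower in unstimulated Th1 and Th2 cells (-2.06 and -0.80), a difference of 2.64 between the states that sets 1 reactivated context against 2 unstimulated ones. The reactivated Th1 context has no value here because its spot was removed; in the authors' table it is at -1.87 against -0.57 with DMSO, lower with the drug as in the unstimulated cells. Stat5a with 500 nM JQ1 was below DMSO in reactivated cells (-0.42 and -0.69) and above it in unstimulated cells (0.05 and 0.51), a difference of -0.84. With 50 nM JQ1 the same gene had -0.20 and -0.08 against 0.30 and 0.14, a difference of -0.36, which was not tested. Stat2 on reactivation without drug went down in both Th1 pairs (-1.33 and -1.25) and was at 0.09 in the Th2 pair, a difference of -1.38 between the cell types, which was not tested.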

How the results depend on the processing

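Of 162 counts of called STAT genes under alternatives other than leaving out an array, 124 stayed within 1.5 times the reported count, 27 were lower and 11 higher. Where they moved, median centring gave 4 genes at rest against naive cells (2 reported), and spike-in centring gave 6 there, 3 for reactivation, 2 for Th1 against Th2, 5 for Flavopiridol against JQ1, 6 for the JQ1 effect by state and 3 for the Flavopiridol effect by cell type. Over all genes, median centring called 8536 of 12539 at rest. Spike-in centring called 9699 of 12539 there, 5802 of 12539 for reactivation and 1438 of 13144 for Th1 against Th2. It called 6107 of 11919 for Flavopiridol against JQ1, 11240 of 12919 for the JQ1 effect by state and 6029 of 12458 for the Flavopiridol effect by cell type. The spike-in shift after loess gave 3 for reactivated against naive cells, 3 for reactivation, 2 for Th1 against Th2, 1 for Flavopiridol against JQ1, 6 for the JQ1 effect by state and 3 for the Flavopiridol effect by cell type. In the same order the shift called, over all genes, 9715 of 12539, 6223 of 12539, 1244 of 13144, 3013 of 11919, 11958 of 12919 and 8590 of 12458. The scanner ratio gave 3 for reactivation, 2 at 10 µM and 2 at 1 µM Flavopiridol, 1 for Flavopiridol against JQ1, 1 for the Flavopiridol effect by state and 0 for the JQ1 effect by state. The mean of all probes gave 1 at rest, 2 at 10 µM Flavopiridol and 1 for the JQ1 effect by state. Reactivation had 3 with Cy3 alone, the authors' table or no filter, and the Flavopiridol effect by cell type had 1 with the authors' table or with flagged spots kept, an alternative chosen after seeing the data. An offset of 10 gave 0 for the JQ1 effect by state, leaving out 24 hr gave 3 for reactivated against naive cells, and 8 arrays gave 1 at 50 nM JQ1. Slide as a random block gave 1 at 10 µM and 2 at 1 µM Flavopiridol. Without the block, reactivation had 2, Th1 against Th2 0, 1 µM Flavopiridol 2, 500 nM JQ1 0, the JQ1 effect by state 0 and the Flavopiridol effect by cell type 1. The genes called without the block were 670 of 13144 for Th1 against Th2, 901 of 12919 for 500 nM JQ1 and 0 of 12919 for the JQ1 effect by state.

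Of 972 values of single members, 16 changed sign with a call on one side at least, and 36 more changed sign without any call. The first kind are given here. At rest against naive cells, Stat3 was -0.61 and Stat5a -0.33 with median centring, and -1 and -0.72 with spike-in centring. Stat6 in reactivated against naive cells was 0.05 with the spike-in shift and 0.05 with the mean of its probes. Stat2 with 500 nM JQ1 was -0.18 (centring) and -0.14 (shift). For the JQ1 effect by state, Stat3 was -1.1 and -1.17 and Stat4 -0.97 and -1.08. For the Flavopiridol effect by cell type, Stat5a was 0.9 and 0.75 and Stat5b 0.81 and 0.63. The spike-in shift moved the median of all genes from -0.01 to -1.26 and from -0.02 to 0.9 in these last comparisons. The cause was not tested.

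Leaving out each array in turn gave 2 called genes at rest, 4 to 6 for reactivated against naive cells, 3 to 4 for reactivation, 4 for Th1 against Th2, 4 to 5 at 10 µM and 2 to 5 at 1 µM Flavopiridol, 3 to 5 at 500 nM and 0 at 50 nM JQ1, 1 to 2 for Flavopiridol against JQ1, 1 to 4 and 0 to 2 for the Flavopiridol and JQ1 effects by state, and 0 to 2 and 0 to 1 by cell type. In reactivated against naive cells, Stat2 did not pass without the Th1 6 or 24 hr array (-0.69 and -0.77) and Stat3 without the Th2 array (-0.64). Without the Th2 DMSO pair, Stat2 (1.27) and Stat3 (1.11) passed for the Flavopiridol effect by state. By cell type, Stat2 (1.42) and Stat5b (-0.6) passed for Flavopiridol without either unstimulated DMSO array and Stat3 (-0.74) without either reactivated one, and Stat2 passed for JQ1 without the unstimulated Th2 DMSO array (1.11) or an unstimulated 500 nM array (1.17).

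With 1 array per condition, a difference within one condition has no error of its own. Dim probes and unswapped dyes limit small differences, and a dye bias common to all arrays enters each comparison with naive cells.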
